A study of Rattus norvegicus with 2 samples.

Results

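Iron handling genes of the liver were followed by 10 of the 15866 probe sets that were not array controls, chosen because the platform annotation gives each of them a single gene symbol from a set of 8. The 8 genes were Hamp, Hpx, Cp, Tf, Tfrc, Slc40a1, Fth1 and Ftl1. Of these, 5 had such a probe set, among 10411 genes on the array with one: Cp and Slc40a1 had 3 each, Tfrc had 2, and Hamp and Hpx had 1 each. The other 3, Tf, Fth1 and Ftl1, were represented by probe sets that the annotation shares among several genes, so no value is assigned to them here. Liver total RNA of SD rats had been hybridised to 2 Affymetrix-type arrays, 1 for rats given a high-fat diet and 1 for rats given a low-fat diet. Both diets were built on AIN93G, a purified rodent diet, and both labels state an age of 4 weeks and 9 weeks of feeding. How much fat each diet held, which sex was used and how many animals each RNA came from are not stated in the labels. Since each diet had 1 array, nothing was replicated, so each difference describes these 2 arrays and no p-value is given.

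Hepatocytes both store iron and set its level in the body. Hamp encodes hepcidin, a peptide hormone made mainly by hepatocytes that makes cells take in and degrade ferroportin, the iron exporter encoded by Slc40a1. Transferrin, encoded by Tf, carries iron in plasma and delivers it through the receptor encoded by Tfrc. Ceruloplasmin, encoded by Cp, is a copper oxidase that converts exported iron to the form transferrin binds, and hemopexin, encoded by Hpx, carries free heme to the liver. Ferritin, the storage shell, is built from the subunits encoded by Fth1 and Ftl1. Hepcidin transcription responds to iron through bone morphogenetic proteins (BMPs) and SMAD factors and to inflammation through interleukin-6 and STAT3, and Hpx and Cp are also acute phase genes.

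The promoters of Hamp, Hpx and Cp are shown because these are the measured members that encode proteins secreted by the liver. The sequences are the 250 bases before the start that the RefSeq promoter table gives for each gene in assembly GRCr8, written 5′ to 3′ on the strand of the gene. For Hamp this is chr1:95300272-95300521 on the minus strand, for Hpx chr1:169352156-169352405 on the minus strand and for Cp chr2:104368420-104368669 on the plus strand. For Cp and Slc40a1 the start of that table lies inside the whole annotated span of the gene, and the annotated span begins further upstream. Capitals mark matches on either strand to GGCGCC, the core of a BMP and SMAD element, to TTCNNNGAA, a STAT element, and to TTGCNNAA, a C/EBP element.
Hamp: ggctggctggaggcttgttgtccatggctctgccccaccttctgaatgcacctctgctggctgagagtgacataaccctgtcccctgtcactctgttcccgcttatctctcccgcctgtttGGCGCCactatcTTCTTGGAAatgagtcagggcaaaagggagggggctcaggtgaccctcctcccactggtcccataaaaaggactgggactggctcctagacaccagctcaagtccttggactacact
Hpx: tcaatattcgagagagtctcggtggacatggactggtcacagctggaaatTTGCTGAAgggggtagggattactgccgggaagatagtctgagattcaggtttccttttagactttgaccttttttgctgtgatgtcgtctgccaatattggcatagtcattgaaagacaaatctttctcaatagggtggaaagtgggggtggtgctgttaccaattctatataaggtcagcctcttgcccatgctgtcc
Cp: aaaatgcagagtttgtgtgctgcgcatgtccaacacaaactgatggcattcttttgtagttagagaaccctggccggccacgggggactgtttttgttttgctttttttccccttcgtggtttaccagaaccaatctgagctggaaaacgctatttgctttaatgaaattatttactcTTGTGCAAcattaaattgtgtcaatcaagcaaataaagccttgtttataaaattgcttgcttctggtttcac

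The Hamp window held 1 match to GGCGCC and 1 match to TTCNNNGAA, read as TTCTTGGAA, with 6 bases between them. The Hpx window and the Cp window each held 1 match to the C/EBP letters and none to the other motifs. Among 33469 rat promoter windows of the same length, 8.69% held GGCGCC, 7.67% held TTCNNNGAA, 9.22% held TTGCNNAA, and 0.379% held both of the Hamp motifs. The Hamp motifs stand for the BMP-SMAD and STAT inputs of hepcidin named above, so these shares are background and not a test. Of 6 members in the promoter table, 2 (Hamp and Tfrc) held GGCGCC, 1 (Hamp) held TTCNNNGAA and 3 (Hpx, Cp and Tf) held TTGCNNAA. The Slc40a1 window had no match. A match describes letters in this window and no binding was measured.

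Both arrays carried the profile of liver. Alb, the albumin gene, had a signal of 9255.6 on the high-fat array and 9119.2 on the low-fat array, the highest of the table on each. All 12 hepatocyte markers were measured, and none of the 7 lymphocyte and neutrophil markers on the array was. Each array's median signal served as its floor, 14 on the high-fat array and 15.7 on the low-fat array, and a probe set counted as measured where its mean log2 signal reached that of the floors. Each log2 ratio (high-fat over low-fat) had the median of the 7864 measured probe sets, -0.117, subtracted from it, which is called centring below. As the centring shifts every ratio alike, uncentred ratios are given where they bear on a direction.

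None of the 9 measured member probe sets was past 2-fold in either direction, against 1.68% of all measured probe sets. The centred ratios were above 0 for 6 probe sets and below 0 for 3, and ran from -0.87 to 0.40. With the brightest probe set of each gene, 4 of the 5 genes were higher on the high-fat array and 1 was lower, and their median log2 ratio was 0.23. The median over all 6012 measured genes was -0.0002, and 49.97% of those were higher. Without centring the split of 4 and 1 was the same and the median was 0.11. When each gene took the median of its measured probe sets, the centred median over genes was 0.18.

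**Figure D1:**
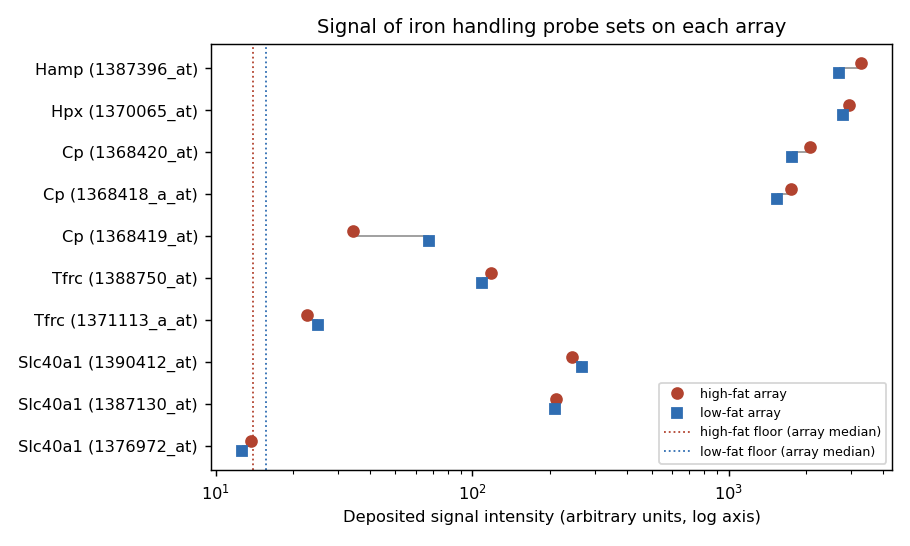
Deposited signal intensity (arbitrary units, log axis) of the 10 iron handling probe sets, with a red circle for the high-fat array and a blue square for the low-fat array, and dotted lines at the floor of each array, 14 and 15.7. Signals are comparable within a probe set and not between probe sets. The widest gap is that of a Cp probe set at 34.1 on the high-fat array and 67.6 on the low-fat array.

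Hepcidin had the highest ratio of the measured members. The Hamp probe set (1387396_at) had a signal of 3284.8 on the high-fat array and 2696.3 on the low-fat array. The high-fat signal was the higher one, by 1.32-fold after centring, a log2 ratio of 0.40. Measured probe sets were divided into 10 equal bins by mean signal. Of the 787 in the same bin as Hamp, the middle 90% had ratios between -0.29 and 0.43, and Hamp stood at percentile 94.3 of them. That bin, the brightest, had a median of 0.05 and a robust SD of 0.171. The uncentred ratio of Hamp was 0.28, and the lowest value among the alternative scalings was also 0.28, with quantile normalization.

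The heme carrier hemopexin and the copper oxidase ceruloplasmin are secreted by hepatocytes. The Hpx probe set (1370065_at) had a signal of 2924.4 on the high-fat array and 2794.8 on the low-fat array. These signals are close, and the centred log2 ratio of 0.18 was 0.07 without centring. The brightest Cp probe set (1368420_at) had a signal of 2065 on the high-fat array and 1762.5 on the low-fat array. Its log2 ratio was 0.35, a 1.27-fold higher high-fat signal, at percentile 91.5 of the same bin. A second Cp probe set (1368418_a_at), nearly as bright, had a signal of 1743.5 on the high-fat array and 1532.5 on the low-fat array, with a log2 ratio of 0.30. Both stayed above 0 without centring, at 0.23 and 0.19.

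The third Cp probe set went the other way. It (1368419_at) had a signal of 34.1 on the high-fat array and 67.6 on the low-fat array, both above the floors. The high-fat signal was the lower one, with a log2 ratio of -0.87, which is 1.83-fold lower. In its own bin of signal, with a robust SD of 0.313, the middle 90% of probe sets ran from -0.58 to 0.48, and this probe set stood at percentile 1.15. The annotation draws it and the second bright probe set from the same GenBank record. The transcript forms that each of the 3 detects are not stated in the labels or the annotation, so the ratios of Cp are given per probe set. Over the 696 genes with more than 1 measured probe set, the brightest and second brightest differed in log2 ratio with an SD of 0.417. The sign was the same in 56.9% of these pairs. For Cp that pair is the brightest and the second bright probe set, so these values do not cover the third.

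Tfrc, the transferrin receptor gene, and Slc40a1 encode membrane proteins. Tfrc, which takes up transferrin-bound iron, had a signal of 118.3 on the high-fat array and 109.4 on the low-fat array on its brighter probe set (1388750_at), a log2 ratio of 0.23. On its dimmer probe set (1371113_a_at) the signals were 22.6 on the high-fat array and 25 on the low-fat array, a log2 ratio of -0.03 that turned positive, at 0.01, with a pseudocount of 50. The 2 probe sets thus lay on opposite sides of 0, and both were inside the middle 90% of their bins of signal. Slc40a1, the ferroportin gene, had a signal of 244.5 on the high-fat array and 268.4 on the low-fat array on its brightest probe set (1390412_at), a log2 ratio of -0.02. The next (1387130_at) had 212.4 on the high-fat array and 210 on the low-fat array, a log2 ratio of 0.13 that was 0.02 without centring. The high-fat array was thus slightly lower on one and slightly higher on the other before any scaling. The last (1376972_at) had 13.7 on the high-fat array and 12.6 on the low-fat array, below both floors, and no fold is given.

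**Figure D2:**
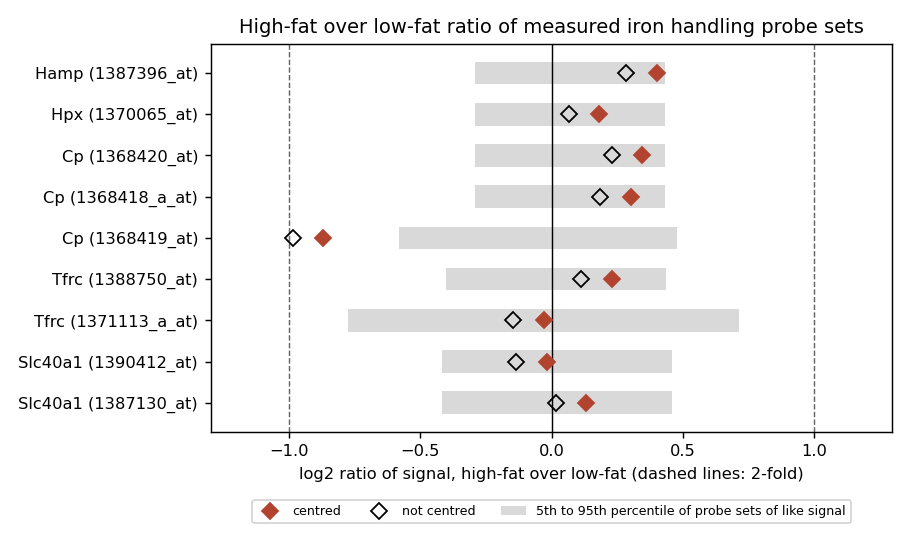
Log2 ratio (signal on the high-fat array over the low-fat array) for the 9 measured iron handling probe sets, centred (filled) and not centred (open), over grey bars that span the 5th to 95th percentile of measured probe sets in the same bin of signal. Dashed lines mark 2-fold. The bars span centred ratios, so only the filled points are set against them. The Cp probe set at -0.87 lies outside its bar, and the other 8 lie inside theirs.

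Genes that control hepcidin went both ways. Of 22 on the array, 17 were measured, 8 higher and 9 lower, and their median log2 ratio was -0.01. None was past 2-fold, against 1.71% of all measured genes. Hfe, a membrane protein that takes part in sensing transferrin iron, had the highest ratio at 0.40, with signals of 68.1 on the high-fat array and 56.1 on the low-fat array. Bmp2, a ligand of the pathway that endothelial cells make in mouse liver, was the lowest at -0.61, with 28.6 on the high-fat array and 47.2 on the low-fat array. Smad5, which carries the BMP signal to the nucleus, was at -0.57, and Il6r, the interleukin-6 receptor, at -0.40. Hfe, Bmp2, Smad5 and Il6r each lay inside the middle 90% of probe sets in their bins of signal. The other main BMP ligand of the liver, Bmp6, and the SMAD inhibitor Smad7 were not measured.

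Uptake, storage and sensing genes were 6 higher and 5 lower of 11 measured, and the median was 0.06. Without centring the median was -0.05, with 5 higher and 6 lower. Lcn2, an acute phase protein that binds iron-carrying siderophores, was the one gene of this list past 2-fold, at 1.01. Over all measured genes the share past 2-fold was 1.71%. Lcn2 had a signal of 31.4 on the high-fat array and 16.9 on the low-fat array, close to the floor. The uncentred ratio of Lcn2 was 0.89, below 2-fold. Ireb2, an iron regulatory protein that binds ferritin and transferrin receptor transcripts, had the lowest ratio, -0.70, with 20.5 on the high-fat array and 36.2 on the low-fat array. Fbxl5, the ubiquitin ligase subunit that removes Ireb2 protein when iron is plentiful, was at -0.58. Steap3, a reductase of endosomal iron, was at 0.44. Ireb2, Fbxl5 and Steap3 lay inside the middle 90% of probe sets in their bins of signal, and Lcn2 lay above it.

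All 6 heme synthesis genes on the array were measured, 2 higher and 4 lower, and the median was -0.09, or -0.20 without centring. Alas1, the rate-limiting enzyme of heme synthesis in liver, was at -0.29, with 382 on the high-fat array and 506 on the low-fat array. Ppox was at -0.27, Fech, which inserts iron into the ring, was at 0.26, and the erythroid Alas2 was at 0.19. Heme capture, breakdown and export genes were 3 higher and 3 lower of 6, and their median of 0.06 became -0.06 without centring. Blvra, a biliverdin reductase, was at 0.54, Lrp1, the receptor for the heme-hemopexin complex, at 0.32, the heme oxygenase gene Hmox2 at -0.32 and the heme transporter gene Slc48a1 at -0.14. Iron-sulfur cluster assembly genes were 8 higher and 5 lower of 13, with a median of 0.02, but 4 higher and 9 lower without centring, where the median was -0.10, and 6 higher and 7 lower when centred on hybridization controls. Their scaffold gene Iscu was at 0.37, Nfu1 at 0.29, Lyrm4 at -0.28 and Fdx1 at 0.19. Every gene named from these lists lay inside the middle 90% of probe sets in its bin of signal.

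Acute phase and hepatocyte genes were set beside Hamp, Hpx and Cp, which share their cell of origin. All 14 measured acute phase genes were higher on the high-fat array, with a median log2 ratio of 0.21. That was 13 of 14 without centring, with a median of 0.09, and 12 of 14 with loess scaling, while quantile normalization left 9 higher, 0 lower and the others at 0. Of all 6012 measured genes, 3004 were higher after centring, 1996 without it and 2995 with loess scaling. A2m was past 2-fold at 1.13, or 1.01 without centring, with 73.3 on the high-fat array and 36.4 on the low-fat array. With Lcn2 that made 2 of the 14 past 2-fold after centring, against 1.71% of all measured genes. Lcn2, close to the floor, was at 0.89 without centring, below 2-fold. The next were Lbp at 0.35 and Serpina3n at 0.28. All 12 hepatocyte markers, of which Fgb and Serpina1 are also in the acute phase list, were higher too, with a median of 0.14. Without centring 8 were higher and 4 lower, and with loess scaling 7 were higher and 5 lower. Most genes of both lists were in the brightest bin of signal, whose own median was 0.05 after centring. Before any scaling the hepatocyte marker probe sets summed to 53450.9 on the high-fat array and 52933.5 on the low-fat array. The highest hepatocyte ratios were those of Tat at 0.27, Fgb at 0.26, Apob at 0.25 and Serpina1 at 0.17. The part of hepatocyte content in the ratios of Hamp, Hpx and Cp was not tested, and in bulk liver fewer cells of a type and less RNA per cell cannot be told apart.

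**Figure D3:**
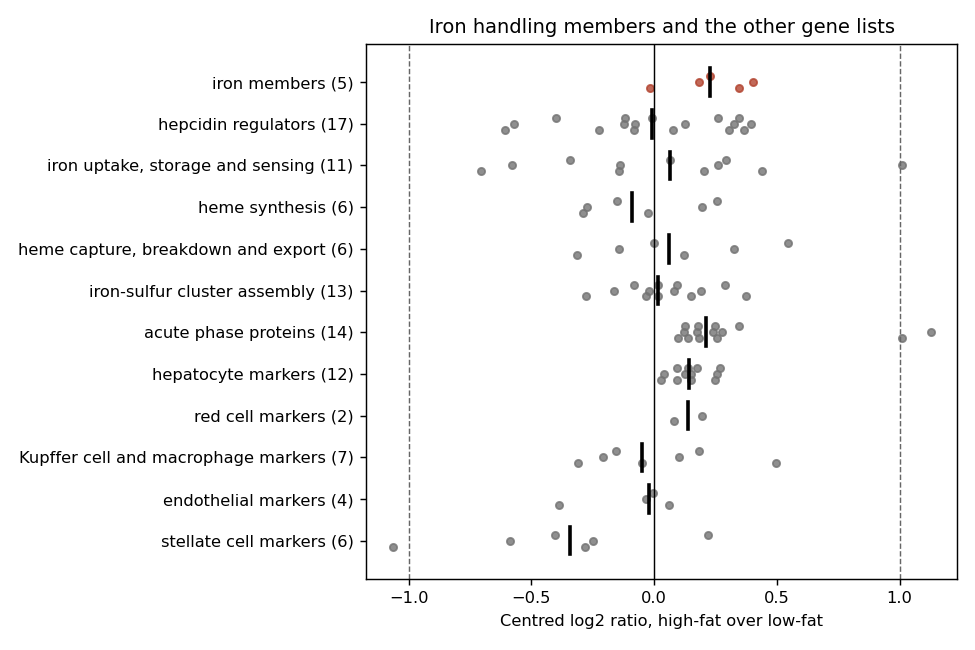
Centred log2 ratio, with the high-fat array over the low-fat array, for each measured gene of the 12 lists with a measured gene, 1 point per gene, with the number of measured genes in brackets and a black bar at the median. Dashed lines mark 2-fold. The iron handling members, in red, have a median of 0.23, the acute phase proteins 0.21 and the hepatocyte markers 0.14, and the point of Col1a2 past the left dashed line rests on a high-fat signal below its floor, as does Rgs5, and Tie1 on a low-fat one.

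Macrophages of the liver recycle red cell iron and express Slc40a1, so their markers were set beside it. Of 7 measured Kupffer cell and macrophage markers 3 were higher and 4 were lower. Their median was -0.05, or -0.16 without centring. Their signals before any scaling summed to 974 on the high-fat array and 1136.5 on the low-fat array. The largest part of each sum was Clec4f, at 375 on the high-fat array and 469.5 on the low-fat array. Clec4f, a Kupffer cell lectin, was at -0.21, the complement gene C1qc at -0.31, Cd68 at 0.18 and Cd14 at 0.50. Red cell markers, relevant to Alas2 and Tfrc, rested on 2 measured genes of 4 on the array, the globin gene Hbb and Alas2 itself. All probe sets of the 4, measured or not, summed before any scaling to 1409.1 on the high-fat array and 1442.1 on the low-fat array. Hbb was at 0.08, and -0.04 without centring. Of 10 stellate cell markers on the array 6 were measured. Of these 5 were lower, with a median of -0.34, which became -0.31 with values below a floor set to it. With a pseudocount of 50 the median was -0.15, and with the floor at the 75th percentile it was -0.26 over 3 genes. The floor at the 25th percentile gave -0.27 over 9 genes, 2 higher and 7 lower. Of the 6, the one that was higher, Reln, was at 0.22, with 75.3 on the high-fat array and 70.1 on the low-fat array. Among the lower ones Vim was at -0.59, Col3a1, the brightest, at -0.25 and Lrat at -0.28. The signals of Lrat, 16 on the high-fat array and 21.1 on the low-fat array, are close to the floor. Another 2 had high-fat signals below the floor, and their centred folds are given with that signal set to the floor. Rgs5, at 13.3 on the high-fat array and 19.1 on the low-fat array, was 1.26-fold lower. Col1a2, at 13.2 on the high-fat array and 29.9 on the low-fat array, was 1.97-fold lower. The second probe set of Col1a2 was at 0.07. Endothelial markers were 1 higher and 3 lower of 4, and 2 higher and 2 lower with quantile normalization or loess, with Lyve1 at -0.39, Kdr at -0.03 and Stab1 at -0.01. The one counted as higher, Tie1, had 14.8 on the high-fat array and 15.4 on the low-fat array, the low-fat signal being below its floor, and has no settled direction. The part of these cell types in the values of Slc40a1, Tfrc and Bmp2 was not tested.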

How the data were processed

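Liver total RNA was measured on 1 array per diet. The deposited values are linear signal intensities, 1 per probe set on each array; how the authors got from image to intensity is not given in the sources used. Of 15923 probe sets, 57 controls were left out; 12783 of the rest had 1 symbol in the platform annotation and 312 several, and lookup by Entrez identifier changed 0 symbols. Ratios were taken between log2 signals without a pseudocount, leaving out 4 probe sets with a 0. Median centring, the floor at each array's median and the 2-fold rule are as given above, and a gene took its measured probe set of highest mean signal. From each list of other genes, those past 2-fold and up to 4 measured genes with the largest absolute ratio were named. Bmp6, Smad7, Alb, Reln, Col3a1 and second probe sets are named in addition, after their values were seen. The members, lists and motifs were chosen with earlier results of these data known. The 2 arrays give no pattern by which to name like genes. Promoters are RefSeq's (GRCr8), and motifs were searched on both strands. The steps were tested on simulated data. The number of arrays limits the precision. Python 3.11.15 was used with numpy 2.4.6, pandas 2.3.3 and statsmodels 0.14.6.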

Additional observations from a re-analysis of the deposited data

How the results depend on the processing

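The count of member probe sets past 2-fold was 0 with no centring, centring on 18 hybridization controls, quantile normalization, loess, a pseudocount of 50, floors at the 25th and 75th percentile, and values set to the floor. The median over member genes was 0.23, and it was 0.11 without centring, the lowest of the alternatives, and 0.24 with the lower floor, the highest. Among single probe sets, 1 of 70 recomputed ratios moved by more than the robust SD of its bin of signal, the dimmest Cp probe set at -0.42 with a pseudocount of 50, and 1 changed sign, the dimmer Tfrc probe set, at 0.01 under the same setting. With the floor at the 75th percentile those 2 probe sets were not measured. Hamp stayed between 0.28 and 0.42. No paired analysis was possible because each diet has 1 array. No replicate could be left out, and the variation between animals is unknown.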

Other observations

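The 3 iron genes without a probe set of their own are listed on probe sets shared with other genes, whose signals cannot be assigned to 1 gene. The probe set that the annotation shares between Fth1 and Fth1-ps5 had a signal of 3520.2 on the high-fat array and 3344.6 on the low-fat array, a log2 ratio of 0.19. The probe set shared among Ftl1 and 4 similar loci had 1097.9 on the high-fat array and 1004.5 on the low-fat array, a log2 ratio of 0.24. The probe set shared between Tf and Srprb had 7031.2 on the high-fat array and 7050.2 on the low-fat array, a log2 ratio of 0.11 that is below 0 without centring. All 3 ratios are under 2-fold.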
